A study of Mus musculus with 2 samples.

Results

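The epidermal differentiation complex is a stretch of chromosome in which many genes of the outermost skin layers lie side by side. The 52 genes described here were taken by symbol from the 19059 genes of the deposited files: every gene named Lce, Sprr or S100a followed by a digit, together with Lor, Ivl, Flg, Flg2, Hrnr, Rptn, Tchh and Crnn. They comprise 17 Lce genes, 13 Sprr genes, 14 S100a genes, 6 genes of the S100-fused type (Flg, Flg2, Hrnr, Rptn, Tchh and Crnn), Lor and Ivl. In keratinocytes 42 of the 52 had at least 50 unique molecular identifiers (UMIs) over both libraries and 4 (Sprr2b, Sprr3, Lce3a and Lce3b) had none. For these 4 a count of 0 over both libraries allows up to 3 UMIs.

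Keratinocytes leave the basal layer, become spinous, then granular, and finally turn into dead corneocytes that carry a cornified envelope beneath the plasma membrane. Involucrin (Ivl) and the small proline-rich proteins (Sprr) are cross-linked early into this envelope, loricrin (Lor) is its main reinforcement protein, and late cornified envelope proteins (Lce) are added last. Filaggrin (Flg) and its relatives are long repeat proteins with an S100 domain at the N terminus, stored in keratohyalin granules, where filaggrin is later released to bundle keratin filaments and to give hygroscopic amino acids. S100 proteins are small calcium-binding proteins, many of which are also used outside the epidermis.

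Whole dorsal skin of 1 wildtype C57BL/6J mouse and of 1 mouse that lacks epiplakin, labelled Eppk1 knockout and written Eppk1-/- here, was measured without treatment. The knockout mouse was backcrossed into C57BL/6J, and neither age nor sex is given in the sources used here. Fixed cells were hybridized with pairs of probes for each gene, ligated pairs were counted by UMI, and the deposited tables held 77638793 UMIs in 9179 wildtype cells and 65118304 UMIs in 8811 Eppk1-/- cells. Levels are UMIs per 1000000 UMIs of the same cells (CPM), summed over cells, and were not compared between genes as amounts, because probe number and efficiency differ between genes and transcript length does not enter. With 1 mouse per genotype no difference between genotypes could be tested, and intervals around ratios cover the counting of UMIs only.

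After the cell filters of the study, keratinocytes numbered 5500 of 8875 cells in the wildtype library (62.0%) and 4057 of 8617 in the Eppk1-/- library (47.1%). Eppk1 itself was at 3002 CPM (wildtype) and 796 CPM (Eppk1-/-) in all keratinocytes. The Eppk1-/- library still held 3412 CPM of Eppk1 in granular cells, against 4990.2 CPM in the wildtype, and in the latest cells defined next it held 939 CPM against 743 CPM. Whether the probes of Eppk1 lie in the deleted part is not given in the sources used here. The libraries shared 1211 droplet barcodes. An unnamed cluster led by Cyp2g1, Btc and Hamp2 held 56 Eppk1-/- cells and 1 wildtype cell and was kept out of the keratinocytes. It was left unnamed because sebocyte genes were among its leading genes.

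All 52 genes lie on chromosome 3 of GRCm38 between positions 90511034 and 93564643 (GENCODE M21). S100a1 to S100a9 form the first block, followed by Lor, the Sprr genes, Ivl, Lce6a, the Lce1 and Lce3 genes, Lce1m, and the fused-type genes from Crnn to Tchh, with S100a11 and S100a10 at the far end. Neighbouring copies are alike in sequence. Among longest transcripts the identity of Lce1 pairs had a median of 72.0% and reached 88.0% for Lce1a1 and Lce1a2, and Lce3 pairs reached 91.6% and Sprr2 pairs 79.5%, so values of single Lce1, Lce3 and Sprr2 genes are uncertain where a probe could bind a copy.

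Promoter sequences from RefSeq (GRCm38.p6, 250 bases before to 50 after each start) were matched by symbol for 47 of the 52 genes. The TATA-box letters TATAAA, searched on both strands anywhere in this window, stood in 13.6% of all 32851 promoters, in 24 of 51 promoters of the complex, in 10 of 12 Sprr promoters and in 4 of 16 Lce promoters. The AP-1 consensus, searched as TGAGTCA or TGACTCA, which are each other's reverse complement, stood in 5.20% of all promoters, in 8 of 12 Sprr promoters, in 1 of 15 S100a promoters (6.67%), and in 0 of 16 Lce and 0 of 6 fused-type promoters. A match describes letters in this window and is not evidence of binding. The stretches just before the start of 6 genes that lead the groups described below are shown 5′ to 3′ on the strand of the gene, with both motifs in capitals. They lie at chr3:92573736-92573885 (minus strand) for Ivl, chr3:92485896-92486031 (minus strand) for Sprr1a, chr3:93520346-93520487 (plus strand) for S100a11, chr3:93273396-93273522 (plus strand) for Flg, chr3:92083143-92083292 (minus strand) for Lor and chr3:93019062-93019211 (minus strand) for Lce1m.
Ivl: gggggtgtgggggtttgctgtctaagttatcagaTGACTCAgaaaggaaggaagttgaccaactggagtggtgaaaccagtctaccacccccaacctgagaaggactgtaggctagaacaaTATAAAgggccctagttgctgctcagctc
Sprr1a: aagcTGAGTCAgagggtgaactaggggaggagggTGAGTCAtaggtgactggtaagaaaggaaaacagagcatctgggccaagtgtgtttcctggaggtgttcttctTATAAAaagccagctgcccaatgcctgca
S100a11: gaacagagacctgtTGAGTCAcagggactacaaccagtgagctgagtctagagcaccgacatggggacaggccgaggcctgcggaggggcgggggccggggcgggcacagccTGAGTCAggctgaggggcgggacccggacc
Flg: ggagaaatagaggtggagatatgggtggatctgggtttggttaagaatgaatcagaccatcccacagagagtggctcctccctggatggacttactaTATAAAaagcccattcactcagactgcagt
Lor: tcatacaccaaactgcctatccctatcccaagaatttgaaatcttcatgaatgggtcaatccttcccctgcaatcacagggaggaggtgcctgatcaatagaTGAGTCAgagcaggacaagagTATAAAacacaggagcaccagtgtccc
Lce1m: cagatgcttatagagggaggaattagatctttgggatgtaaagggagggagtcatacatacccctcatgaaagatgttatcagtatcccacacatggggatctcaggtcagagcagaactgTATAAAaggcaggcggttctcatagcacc
The stretches of Ivl, Sprr1a, Lor and S100a11 hold the AP-1 letters, Sprr1a and S100a11 with 2 matches each, S100a11 being the 1 S100a promoter with a match, and those of Flg and Lce1m hold TATAAA but neither form of the AP-1 letters. No overlap between both motifs occurs in these stretches.

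Keratinocytes were staged by shares of each cell's UMIs. Cells with at least 1% from Lce genes were called latest, of the rest those with at least 1% from Flg and Lor granular, of the rest those with at least 1% from Krt1 and Krt10 spinous, and the remainder Krt1/Krt10-low. The Krt1/Krt10-low cells comprise basal, follicular and cycling cells, but also cells of unnamed and late sub-clusters, so this group is not only the start of the epidermal course. In the order wildtype and Eppk1-/-, 4254 and 2917 cells were Krt1/Krt10-low, 1054 and 1036 spinous, 122 and 51 granular and 70 and 53 latest. The basal keratin Krt5, which the cuts did not use, was at 6993 and 8168 CPM in the Krt1/Krt10-low, 1052 and 1194 CPM in the spinous, 101 and 52.1 CPM in the granular and 76.4 and 51.7 CPM in the latest cells. Krt2, another keratin of late layers, had at most 1.56 CPM in any stage and library. Near the Lce cut 6 wildtype and 1 Eppk1-/- cells had 0.5% to 1% and 8 and 6 had 1% to 2% of their UMIs from Lce genes. Near the cut for Flg and Lor 17 and 12 cells lay just under it and 27 and 8 had 1% to 2%, a sizeable part of the 122 and 51 granular cells. For Krt1 and Krt10 the cut runs through a continuum, with 293 and 207 cells just under it and 415 and 357 just over it.

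**Figure D1:**
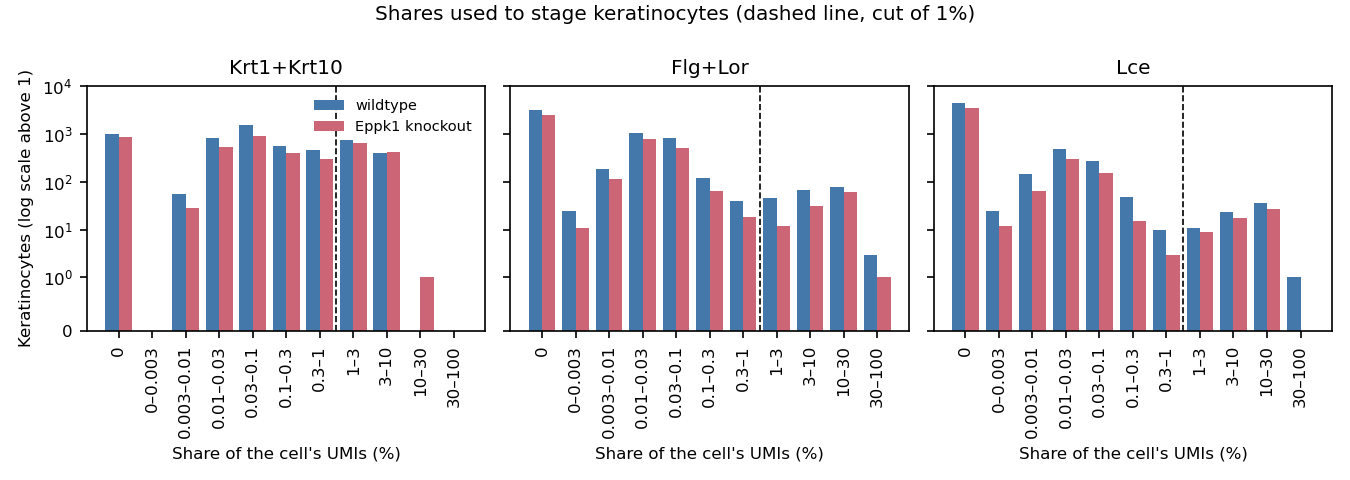
Number of keratinocytes (vertical axis, log scale above 1) by the share of a cell's UMIs from Krt1 and Krt10, Flg and Lor, or Lce genes (horizontal axis, percent), in the wildtype (blue) and Eppk1-/- (red) libraries. The dashed line is the cut of 1%; 70 and 53 cells lie above it for Lce, few of them next to it, whereas for Krt1 and Krt10 it runs through the bulk of the cells.

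The stages differ in depth and were thinned by the filters. Median UMIs per cell were 4032 and 3911 in the Krt1/Krt10-low and 18783 and 18775 in the latest cells. The upper limit of 45000 UMIs removes deep cells, and the removed cells, 304 and 194 in all, held 38.0% and 37.6% of all UMIs of the complex in their libraries. With no filter 99 of 224 wildtype and 62 of 113 Eppk1-/- granular keratinocytes were ones that the filters removed, so the granular values describe the shallower part of that stage. As the latest cells take 31.4% and 31.6% of their UMIs from the complex itself, against 1.08% and 1.07% in Krt1/Krt10-low cells, the CPM of every other gene is pressed down there. Leaving these UMIs out of the total left the number of genes highest in the granular or latest stage nearly as it was (24 in place of 23), and 6 in place of 7 were highest in spinous cells.

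Across stages the S100a sum was highest in Krt1/Krt10-low cells, the Sprr sum in granular cells and Ivl in spinous or granular cells. The fused-type, Lor and Lce sums were highest in latest cells. Of the 42 genes with at least 50 UMIs, 37 had their highest CPM in the same stage in both libraries: 7 in Krt1/Krt10-low, 7 in spinous, 7 in granular and 16 in latest cells. Among all 11757 genes with as many UMIs, 53.0%, 11.2%, 12.5% and 5.94% were highest there in both libraries. The 16 genes highest in the latest cells comprise all 13 Lce genes with 50 UMIs, Lor, Flg and Flg2. For the Lce genes the cut on their sum sets this. For Lor and Flg the granular cut keeps their sum low in spinous and Krt1/Krt10-low cells, but it does not set the order of granular and latest cells. Of the 27 genes that no cut used, 7 (25.9%) were highest in Krt1/Krt10-low, 7 in spinous, 7 in granular and 1 in latest cells (3.70%, Flg2). Sub-clusters were formed without any gene of the complex, and the 615 and 427 cells of unnamed ones were not ranked. Among the named ones 23 genes were highest in the late sub-cluster, 5 in differentiating and 8 in basal, follicular or proliferating ones. Of 11465 genes 10.9%, 7.68% and 58.6% were. S100a16 is not among the 8, as it was highest in proliferating wildtype but in follicular Eppk1-/- cells. Those of the late sub-cluster included Sprr1a, Sprr4, Ivl, Hrnr, Flg, Flg2, Lor and the 13 Lce genes, so it gives no order among them. Sprr4 was higher still in an unnamed sub-cluster described below. Single cells carried part of the order: without the cell with most UMIs of a gene in each stage and library, 8 genes were highest in Krt1/Krt10-low, 8 in spinous, 5 in granular and 16 in latest cells (background 56.7%, 12.2%, 10.1% and 5.63%).

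**Figure D2:**
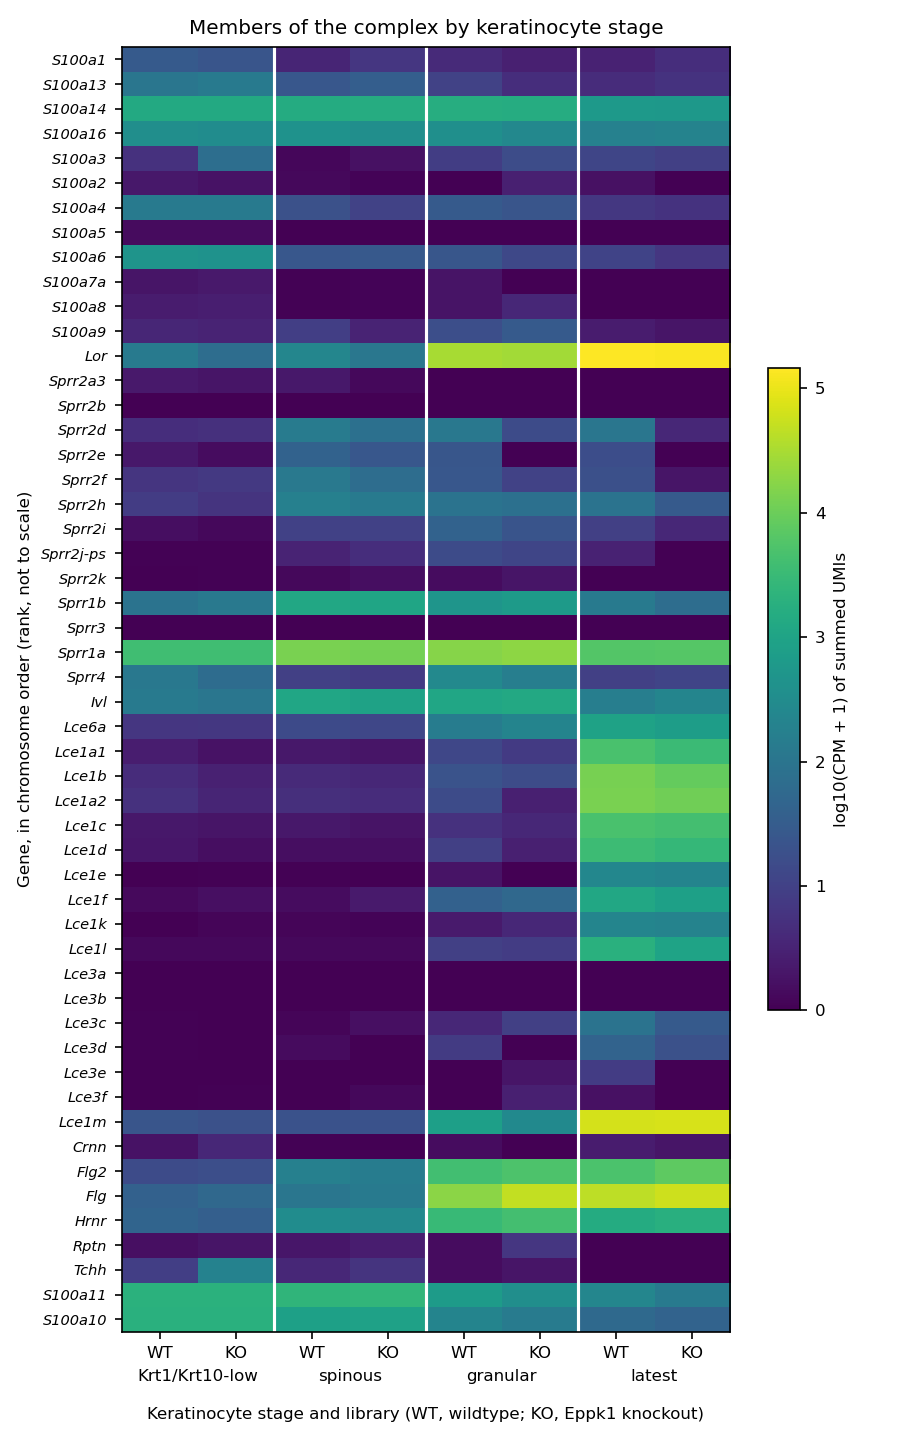
Heat map of the 52 genes in chromosome order (rows, by rank and not to scale) by keratinocyte stage and library (columns; WT, wildtype; KO, Eppk1-/-), coloured by log10(CPM + 1) of summed UMIs. Lce6a, the Lce1 genes and Lce1m are bright in the latest stage while the Lce3 genes stay dark, Lor, Flg2, Flg and Hrnr are bright from the granular stage on, and S100a11 and S100a10 are bright in the first stages.

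Ivl, the scaffold on which the envelope starts, was near its highest level before the granular stage in the wildtype library only. It was at 125 and 108 CPM in Krt1/Krt10-low, 1155 and 953 CPM in spinous, 1153 and 1326 CPM in granular and 159 and 217 CPM in latest cells, in the order wildtype and Eppk1-/-. The libraries differed in where it was highest: spinous and granular cells were nearly level in the wildtype, and granular cells were higher in the Eppk1-/- library. Ivl was highest in the late one of the named sub-clusters in both libraries, at 997 and 1212 CPM. In differentiating cells it was at 979 and 756 CPM. After each cell was thinned to 2000 UMIs, 36.8% and 28.5% of spinous and 73.3% and 84% of granular cells had at least 1 UMI of Ivl, against 2.11% and 1.08% of fibroblasts, which should lack it.

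Sprr1a, a cornified envelope precursor also known from injured nerves, supplied most Sprr counts. It was at 3836 and 3723 CPM in Krt1/Krt10-low, 13259 and 12010.2 CPM in spinous, 16715 and 19395 CPM in granular and 6108 and 6246 CPM in latest cells. Within sub-clusters it was at 444 and 392 CPM in basal and 11685 and 10578 CPM in differentiating cells. Krt1/Krt10-low cells held 81625 and 51002 Sprr UMIs, whereas basal sub-clusters held 4585 and 2970, follicular ones 4019 and 2093 and proliferating ones 442 and 462. It was highest in the late sub-cluster in both libraries. Its neighbour Sprr1b peaked earlier, at 1215 and 1095 CPM in spinous against 489 and 661 CPM in granular cells, and 35.2% and 32.9% of spinous but only 25% and 32% of granular cells had a UMI after thinning. By these stages both genes were highest before the latest stage, which the Lce share itself defines. By named sub-cluster Sprr1b was highest in differentiating cells in both libraries. Of the named sub-clusters, the late one was highest for both Sprr1a and the Lce genes with at least 50 UMIs.

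The Sprr2 genes, a tandem array of small envelope proteins, were far sparser and followed Sprr1b. Sprr2d was at 3.73 and 4.08 CPM in Krt1/Krt10-low and 142 and 78.6 CPM in spinous cells, Sprr2f at 5.23 and 6.09 and 122 and 69.0 CPM, and Sprr2h at 7.22 and 4.85 and 174 and 130.2 CPM. Together with Sprr2e these had their highest level in spinous cells in both libraries. Sprr2i and Sprr2j-ps were instead highest in granular cells, Sprr2i with 40.7 and 20.5 CPM. In granular cells Sprr2d was in the Eppk1-/- library at 15 UMIs of 1073996, against 257 of 2212920 in the wildtype. In wildtype and Eppk1-/- granular cells a single cell held 33.1% and 66.7% of the Sprr2d UMIs, and a single cell held 34.4% and 27.3% of those of Sprr2i.

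Sprr4 did not follow the other Sprr genes. It was at 117 and 67.1 CPM in Krt1/Krt10-low, only 8.58 and 6.86 CPM in spinous, 264 and 163 CPM in granular and 8.57 and 10.3 CPM in latest cells. In granular cells 1 cell per library held 63.9% and 47.4% of its UMIs. Without the top cell of each stage Sprr4 was at 95.3 and 85.7 CPM in granular and 102 and 61.6 CPM in Krt1/Krt10-low cells, so that the wildtype was then highest in Krt1/Krt10-low cells. A sub-cluster led by Krt79, Cst6 and Defb6, which was left unnamed because follicular genes were among its leading genes, held 2259 and 650 UMIs of Sprr4, and it comprised 537 wildtype and 359 Eppk1-/- cells. Sprr4 was at 615 and 283 CPM there, at 174 and 151 CPM in the late sub-cluster, and at 1.73 and 1.65 CPM in basal and 1.40 and 0.477 CPM in follicular ones.

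The S100a genes split by stage. S100a10, which binds annexin A2, was at 1919.7 and 1843 CPM in Krt1/Krt10-low and lower at each later stage, with 848 and 879 CPM, 208 and 142 CPM and 57.9 and 43.3 CPM. S100a6 was at 459 and 419 CPM in Krt1/Krt10-low and 24.3 and 26.6 CPM in spinous cells, and S100a4 at 126 and 125 and 17.9 and 9.66 CPM. By named sub-cluster both were highest in the follicular ones, where S100a6 was at 1515 and 1448 CPM and S100a4 at 493 and 664 CPM, against 196 and 250.4 and 11.9 and 10.9 CPM in basal cells. S100a13 was at 105 and 125 CPM in Krt1/Krt10-low and 23.9 and 34.4 CPM in spinous cells.

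Other S100a genes kept their level into the spinous stage or beyond. S100a11, which is also a substrate of envelope cross-linking, was at 1938 and 1946 CPM in Krt1/Krt10-low and 2371 and 2496 CPM in spinous cells and lower after that, at 671 and 356 CPM and 231 and 135 CPM. By named sub-cluster S100a11, like S100a10 and S100a13, was highest in proliferating cells in both libraries. S100a14 held 1344 and 1340.2 CPM, 1509 and 1531 CPM and 1673 and 1546 CPM and was at 583 and 554 CPM in the latest cells, and after thinning 95.8% and 90% of granular cells had a UMI. Without the top cell of each stage the Eppk1-/- library was highest in spinous cells. S100a9, a subunit of calprotectin, was scarce but highest in granular cells, with 16.7 and 27.9 CPM from 37 and 30 UMIs. A single cell per library held 45.9% and 40% of them, and without the top cell of each stage the level was 9.04 and 16.8 CPM in granular and 6.08 and 1.66 CPM in spinous cells. Its partner S100a8 had 33 and 27 UMIs in all keratinocytes. S100a2, S100a5 and S100a7a stayed under 50 UMIs.

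Of the fused-type genes, Hrnr, Flg2 and Flg were the genes of the granular and latest stages. Hornerin (Hrnr) was already at 325 and 264 CPM in spinous cells, was highest in granular cells at 2963 and 4242 CPM, and was at 1508 and 1831 CPM in the latest cells. Flg2 was at 179 and 145 CPM, 3974 and 5196 CPM and 4966 and 7497 CPM. Flg, used for the cut, was at 104 and 131 CPM, 18409 and 49373 CPM and 44159 and 58392 CPM. Along granular cells ordered by their Flg plus Lor share, Hrnr was at 3154 and 4336 CPM at 1% to 2%, 2898 and 3576 CPM at 2% to 5% and 2889.9 and 4668 CPM above 5%, and Flg2 at 2329 and 3229.9, 3219 and 4803 and 6083 and 5941 CPM.

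Repetin (Rptn) and cornulin (Crnn) were scarce and had 27 and 34 and 19 and 36 UMIs in keratinocytes. Tchh, which belongs to the inner root sheath and medulla of the hair, was at 8.06 and 194 CPM in Krt1/Krt10-low cells. In the Eppk1-/- library 2436 of its 2568 UMIs lay in a single cell of 9705 UMIs, the same cell that held 31 of 36 UMIs of Crnn. A different Eppk1-/- cell held 870 of 957 UMIs of S100a3, a protein of the hair cuticle. Differences between genotypes in these 3 genes rest on those cells.

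Lor and the Lce genes made up most of the complex in the latest cells. Lor, part of the granular cut, was at 231 and 108 CPM in spinous, 30622 and 27669 CPM in granular and 144634 and 136629 CPM in latest cells, where it was 14.5% and 13.7% of all UMIs. The 17 Lce genes together were 0.107% and 0.0597% of UMIs in granular and 11.1% and 10.4% in latest cells. In the late sub-cluster, whose formation used neither, Lor was at 64708 and 64699 CPM. Single latest cells varied widely, with wildtype Lce shares between 1.25% and 34.0%, Eppk1-/- shares between 1.13% and 27.6%, and medians of 10.2% and 10.6%.

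**Figure D3:**
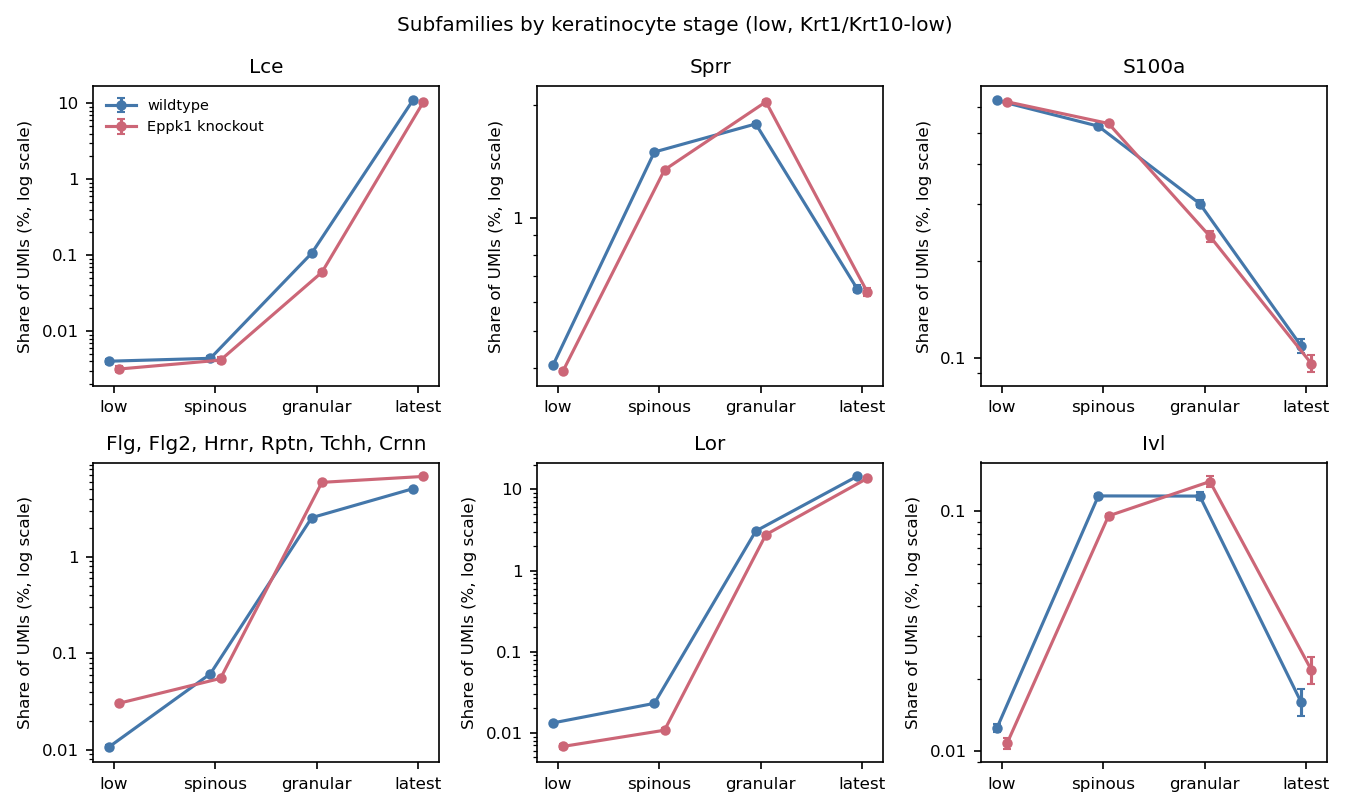
Share of all UMIs (vertical axes, percent, log scale with a separate range per panel) that each subfamily took in each keratinocyte stage (horizontal axes; low, Krt1/Krt10-low) in the wildtype (blue) and Eppk1-/- (red) libraries, with exact 95% counting intervals. S100a falls from stage to stage, Sprr and Ivl have their high point in spinous or granular cells, and Lor and Lce are highest in the latest cells.

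Lce1m, which stands apart from the other Lce1 genes behind the Lce3 block, supplied 64.8% of Lce1 UMIs in keratinocytes, Lce1a2 11.3% and Lce1b 10.1%, as far as probes of different genes can be set side by side. In latest cells Lce1m was at 68076 and 70774 CPM, Lce1a2 at 13070.3 and 11059.8 CPM, Lce1b at 12543 and 8699 CPM and Lce1k, the least counted Lce1 gene, at 227 and 206 CPM. The Lce3 genes, which in human skin are linked with repair and psoriasis, had few counts: Lce3c had 137 and 45 UMIs, Lce3d 82 and 19, Lce3e 10 and 1, and Lce3f 1 and 6.

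The Lce genes differed in their granular level relative to their level in latest cells. Lce6a, which lies next to Ivl and before the Lce1 genes, was at 145 and 209 CPM in granular cells, 15.1% and 28.5% of its level of 959 and 733 CPM in latest cells. For Lce1f the granular level was 3.08% and 6.29% of the latest level, for Lce1m 1.18% and 0.401%, for Lce1b 0.159% and 0.171% and for Lce1a2 0.107% and 0.0168%. For Lce3c it was 2.97% and 29.7% and for Lce3d 15.6% and 0%, from few UMIs. In the Eppk1-/- library 25 of 59 granular Lce1f UMIs lay in 1 cell. After thinning, 25% and 30% of granular cells had a UMI of Lce6a, against 0.117% and 0.154% of fibroblasts. The Lce sum set the cut between granular and latest, mostly through Lce1m, and so limits Lce1m in granular cells more than sparse Lce genes. These shares are therefore a description and give no order of onset.

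Within the latest cells the make-up of the Lce counts differed with their total. In cells with Lce shares of 1% to 5%, 5% to 15% and above 15% (17, 25 and 28 wildtype and 13, 26 and 14 Eppk1-/- cells), Lce1m was 91.6% and 94.5%, 73.5% and 77.4% and 52.8% and 55.4% of Lce UMIs. Lce1f CPM was 226 and 149, 742 and 472 and 2661 and 2656, and Lce6a CPM was 288 and 408, 947 and 598 and 1526 and 1431. Genes not used for this split differed as well, and Lor went from 97484 and 95855 over 154922 and 144933 to 172796 and 167433 CPM. Sprr1a went from 13599 and 14926 over 4366 and 3957 to 1747 and 860.2 CPM, S100a14 from 1324 and 1069 over 471 and 478 to 88.1 and 101 CPM, and Krt10 from 7852 and 7613 to 577 and 629 and 553 and 269 CPM. Flg was highest in the middle group, at 54772 and 63673 CPM. The limits of these groups were chosen after the data were seen.

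The other genes of cornification, a list of 30 with transglutaminases, proteases, lipoxygenases and further genes of the region, ran with the late part of the complex. Of the 25 with at least 50 UMIs, 2 were highest in Krt1/Krt10-low, 1 in spinous, 11 in granular and 8 in latest cells in both libraries. Among all 11757 genes with as many UMIs these shares were 53.0%, 11.2%, 12.5% and 5.94%. Sbsn (suprabasin) was at 8193 and 6801 CPM in spinous and 17502 and 18015 CPM in granular cells, Krtdap at 6826 and 5756 and 13762 and 13534 CPM, and Dmkn at 5405 and 4694 and 9962 and 9522 CPM.

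Most structural genes of the complex were highest in keratinocytes. Of 44 genes with at least 50 UMIs over the named cell types, 28 were highest in keratinocytes in both libraries, where 6.84% of all 13652 genes were. Fibroblasts were highest for 3 genes (background 6.56%), sebocytes for 5 (7.46%), T and NK lymphocytes for 1 (5.8%) and Langerhans or dendritic cells for 1 (3.56%), and 6 genes differed between libraries. No gene was highest in macrophages or monocytes, endothelial cells, mast cells or basophils, skeletal muscle or melanocytes in both libraries, against 4.55%, 4.37%, 4.57%, 6.07% and 6.58% of all genes. The 28 keratinocyte genes include all 13 Lce genes, 9 of the Sprr genes, Lor, Ivl, Flg, Flg2, Hrnr and Tchh. Unnamed clusters were not ranked. In the one led by Cyp2g1, Btc and Hamp2, Eppk1-/- cells had 1.62% of their UMIs from Lce genes, against 0.452% in Eppk1-/- keratinocytes. Of the 13 S100a genes with as many UMIs 0 were among them, which is near the share of 6.84% over all genes. Lor was at 56.3 and 39.3 CPM in fibroblasts and 69.0 and 40.4 CPM in macrophages, against 133 and 68.2 CPM in Krt1/Krt10-low keratinocytes. After thinning to 2000 UMIs, 10.4% and 8.41% of fibroblasts and 16.6% and 12.3% of Krt1/Krt10-low keratinocytes had a UMI of Lor. Whether free RNA of other cells gave these UMIs was not tested. The thinned cells numbered 1705 and 2604 fibroblasts, with medians of 6979 and 6264 UMIs before thinning, and 144 and 198 shallower fibroblasts and 568 and 501 keratinocytes were left out.

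Sprr1a UMIs occurred in other cell types as well, with 1054 and 968 CPM in sebocytes, 269.7 and 1128 CPM in endothelial cells and 649 and 301 CPM in Langerhans or dendritic cells, against 8011 and 7735 CPM in keratinocytes and 300.5 and 187 CPM in fibroblasts. Ivl was at 124 and 73.0 CPM in sebocytes, 22.2 and 76.3 CPM in endothelial cells and 14.9 and 7.12 CPM in fibroblasts. Free RNA of other cells was not modelled, and its part in these values was not tested.

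The common S100a genes differed in the cell type where they were highest. S100a4, linked with motile cells, was highest in T and NK lymphocytes at 1530.2 and 1628 CPM, followed by Langerhans or dendritic cells at 949.6 and 1129.8 CPM and macrophages or monocytes at 693 and 616 CPM. Without integration of the libraries the count of genes highest in T and NK lymphocytes went from 1 to 0. S100a11 was highest in Langerhans or dendritic cells at 2481 and 2949 CPM, with keratinocytes next at 1948 and 2013 CPM. S100a6, S100a10 and S100a13 were highest in fibroblasts, at 1118 and 856 CPM, 1713 and 1533 CPM and 321 and 337 CPM. S100a10 was broad, with keratinocytes at 1369 and 1317 CPM and endothelial cells at 1378 and 1014 CPM.

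Sebocytes, the lipid-making cells of the sebaceous gland, were highest for 5 S100a genes, S100a1, S100a8, S100a9, S100a14 and S100a16, where 7.46% of all genes were highest in sebocytes in both libraries. S100a16 was at 1128 and 1173 CPM in sebocytes and 375 and 327 CPM in keratinocytes, and S100a1 at 233 and 390.0 and 16.6 and 14.1 CPM. S100a14 was close in both, at 1467 and 1583 and 1392 and 1389.5 CPM. S100a8 was at 67.3 and 48.3 CPM in sebocytes, from 93 and 90 UMIs. There were 150 and 134 sebocytes, and the 30 and 5 skeletal muscle cells and 28 and 14 melanocytes are too few for low genes.

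**Figure D4:**
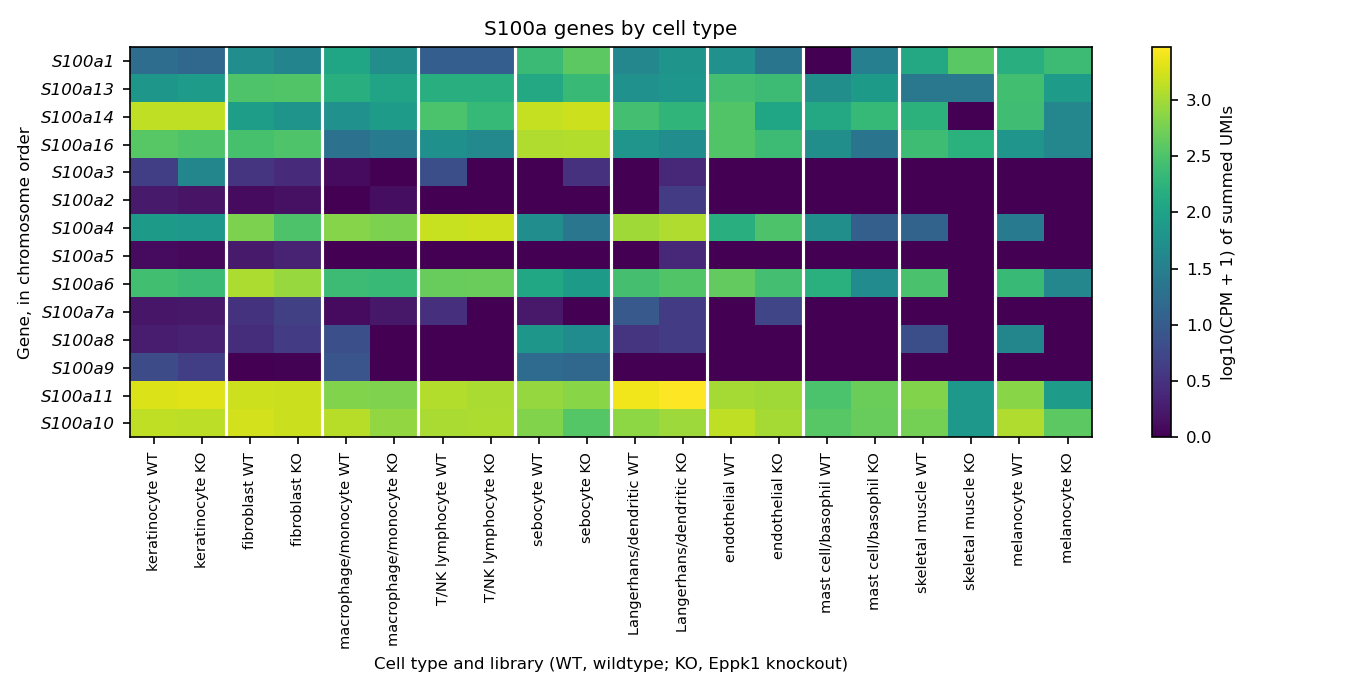
Heat map of the 14 S100a genes in chromosome order (rows) by cell type and library (columns; WT, wildtype; KO, Eppk1-/-), coloured by log10(CPM + 1) of summed UMIs. S100a4 is brightest in T and NK lymphocytes, S100a11 in Langerhans or dendritic cells, S100a14 and S100a16 in sebocytes, and S100a6 in fibroblasts.

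Between genotypes Flg was higher and several sparse Sprr2 and Lce genes lower in Eppk1-/- keratinocytes. The Lce, Sprr, S100a and Lor levels summed over all keratinocytes lay close together, which does not hold within each stage. Of the 42 genes with at least 50 UMIs, 5 had a log2 ratio of Eppk1-/- over wildtype of at least 0.5 and 9 of at most -0.5, and among all 11757 genes 2.94% and 4.61% did. Without the cell with most UMIs of each gene in each library the counts were 2 and 9, against 2.42% and 4.91% of all genes. At least 50 UMIs were required again after this removal. The lower genes were therefore not the same ones: Sprr2a3 fell under 50 UMIs, and Sprr2i went from -0.42 to -0.86. The median log2 ratio was -0.11 over the 42 genes and -0.016 over all genes. These differences compare 1 library with 1 library, and the spread between mice is unknown.

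**Figure D5:**
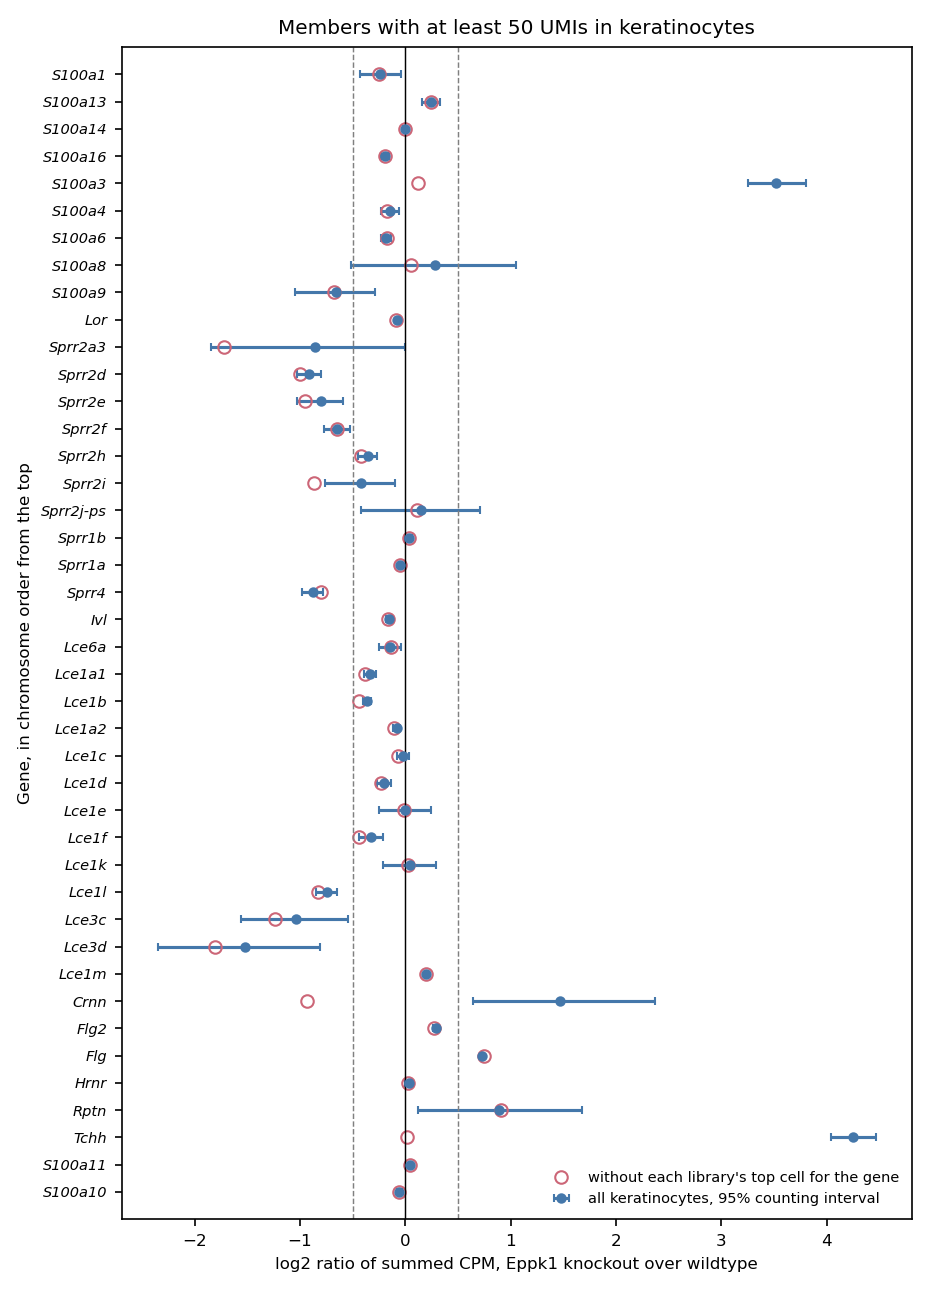
Log2 ratio of summed CPM in keratinocytes, Eppk1-/- over wildtype (horizontal axis), for the 42 genes with at least 50 UMIs (vertical axis, chromosome order from the top); blue points are all keratinocytes with 95% counting intervals, red circles leave out the cell with most UMIs of the gene in each library, and dashed lines mark 0.5 in either direction. Tchh, S100a3 and Crnn lose their high ratio without 1 cell per library, and Flg and the scarce Rptn keep it. S100a9, Sprr2a3, Sprr2d, Sprr2e, Sprr2f, Sprr4, Lce1l, Lce3c and Lce3d lie below -0.5 in both.

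Flg was at 2866 and 4731 CPM in wildtype and Eppk1-/- keratinocytes, a log2 ratio of 0.72 (95% counting interval 0.71 to 0.74). It was also higher within the late stages, at 18409 and 49373 CPM in granular and 44159 and 58392 CPM in latest cells, log2 ratios of 1.42 and 0.40. Flg is itself part of the granular cut, so the granular values are a description. The median share per cell went from 1.06% to 3.25% in granular and from 3.28% to 4.96% in latest cells, with overlapping ranges. In the late sub-cluster, formed without Flg, it was at 23818 and 42114 CPM. Over 11 alternatives the keratinocyte ratio lay between 0.41, without the 5% of cells with the highest doublet scores, and 0.90, with the stages weighted by their wildtype shares. The sum of the 6 fused-type genes was at 3750.2 and 5835 CPM, a log2 ratio of 0.64 (95% counting interval 0.63 to 0.65), which includes the Tchh counts of 1 cell. Flg2 was at 502 and 613 CPM, a log2 ratio of 0.29 (95% counting interval 0.26 to 0.32), and Hrnr at 376 and 384 CPM, a log2 ratio of 0.031 (95% counting interval -0.0069 to 0.069).

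The make-up of the granular stage differed between libraries. Of the granular cells, 43 of 122 wildtype and 27 of 51 Eppk1-/- cells had more than 5% of their UMIs from Flg and Lor. Within these cells Flg was at 38448 and 80514 CPM and Lor at 54275 and 37308 CPM, and at shares of 2% to 5% Flg was at 10552 and 19260.0 and Lor at 23295 and 19750.4 CPM. The groups are set by the sum of both genes, so these values are a description.

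Lor was at 7554 and 7149 CPM in keratinocytes, a log2 ratio of -0.079 (95% counting interval -0.088 to -0.071), and its direction turned to 0.054 without cells whose droplet barcode occurs in both libraries. In the late sub-cluster it was at 64708 and 64699 CPM. In Krt1/Krt10-low and spinous cells it was at 133 and 68.2 and 231 and 108 CPM, log2 ratios of -0.96 and -1.10, beside 56.3 and 39.3 CPM in fibroblasts. Lor is itself part of the granular cut, which limits it in both of these stages, so these ratios are a description. In the wildtype 1 cell per stage held 9.67% and 10.9% of these Lor UMIs. Ivl was at 550.0 and 494 CPM, a log2 ratio of -0.15 (95% counting interval -0.19 to -0.12), and with no cell filter the ratio was 0.019.

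The Lce sum was at 4371 and 4520.2 CPM, a log2 ratio of 0.049 (95% counting interval 0.038 to 0.060), and the sign turned with a mean over cells (-0.10) and with stages weighted by their wildtype shares (-0.11). Its genes did not move together: Lce1m was at 2677 and 3069.9 CPM, a log2 ratio of 0.20 (95% counting interval 0.18 to 0.21), whereas Lce1b was at 485 and 377 CPM, a log2 ratio of -0.37 (95% counting interval -0.40 to -0.33), and Lce1l at 72.8 and 43.3 CPM, a log2 ratio of -0.75 (95% counting interval -0.85 to -0.64). Without cells of shared droplet barcodes Lce1l was at -0.42. Lce3c and Lce3d had log2 ratios of -1.03 (95% counting interval -1.56 to -0.55) and -1.52 (95% counting interval -2.35 to -0.81), from the few UMIs given before. In the latest cells alone Lce1m was at 68076 and 70774 CPM, Lce1b at 12543 and 8699 CPM and Lce1l at 1877 and 994 CPM. Within each stage the Lce sum was lower in the Eppk1-/- library, unlike the sum over all keratinocytes. Its log2 ratio was -0.34 in Krt1/Krt10-low, -0.079 in spinous (95% counting interval -0.27 to 0.11), -0.84 in granular and -0.10 in latest cells. The Lce share is itself the cut between granular and latest cells, so these values are a description.

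The Sprr sum was at 8818 and 8442 CPM, a log2 ratio of -0.063 (95% counting interval -0.071 to -0.055), set by Sprr1a with -0.051 (95% counting interval -0.059 to -0.042). Sprr2d was at 63.0 and 33.4 CPM, a log2 ratio of -0.91 (95% counting interval -1.03 to -0.80), Sprr2e at 17.3 and 9.86 CPM with -0.80 (95% counting interval -1.03 to -0.59), and Sprr2f at 47.8 and 30.5 CPM with -0.65 (95% counting interval -0.77 to -0.52). With no cell filter these ratios shrank to -0.39, -0.34 and -0.027. Sprr4 was at 83.6 and 45.4 CPM, a log2 ratio of -0.88 (95% counting interval -0.98 to -0.78), and stayed between -0.97 and -0.74 over 11 alternatives.

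Among S100a genes, the sum was at 5519 and 5486 CPM, a log2 ratio of -0.0087 (95% counting interval -0.019 to 0.0012). S100a13 was at 67.0 and 79.3 CPM, a log2 ratio of 0.24 (95% counting interval 0.16 to 0.33), S100a1 at 16.6 and 14.1 CPM with -0.24 (95% counting interval -0.43 to -0.046), and S100a14 at 1392 and 1389.5 CPM with -0.0030 (95% counting interval -0.023 to 0.017). S100a9 was at 5.31 and 3.36 CPM, a log2 ratio of -0.66 (95% counting interval -1.05 to -0.28) that turned to 0.074 as a mean over cells. S100a3 had a log2 ratio of 3.52 (95% counting interval 3.25 to 3.80), and 0.12 without 1 cell per library. Tchh had 4.25 (95% counting interval 4.04 to 4.47) and 0.016, and Crnn 1.47 (95% counting interval 0.64 to 2.37) and -0.93. Rptn had 0.89 (95% counting interval 0.12 to 1.68), from 27 and 34 UMIs.

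Of the cornification list, 0 of 25 genes with at least 50 UMIs had a log2 ratio of at least 0.5 and 1, Tgm3, of at most -0.5. Over all 11757 genes these shares were 2.94% and 4.61%, and both counts lie near them. The median of the list was -0.12. Sbsn, Krtdap and Dmkn had log2 ratios of -0.15, -0.15 and -0.14.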

How the data were processed

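The authors deposited UMI counts per gene and cell for 1 wildtype and 1 Eppk1 knockout library of mouse dorsal skin, made with Cell Ranger 8.0.1 on mm10 from fixed cells and probe pairs for each gene; no normalization is contained in these counts. As in the study, cells under 200 or over 45000 UMIs, under 100 or over 7500 genes, or over 10% mitochondrial UMIs were dropped, and 13 mitochondrial genes were removed. Clusters came from Seurat 5.3.0 in R 4.3.3 (log-normalization to 10000, 2000 variable features less the 52 genes and Eppk1, 50 principal components, RPCA integration, Louvain resolution 0.5), and were named from marker lists by a score set after the clusters were seen. The study's own SCTransform and cell-level tests were not used, as cells are not replicates.

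UMIs were summed per library and cell type or stage and divided by their total (CPM), with exact Poisson intervals. Log2 ratios had 0.5 added to each sum and exact conditional binomial intervals (95%), which cover counting error only. A size rule of 0.5 was applied to genes with at least 50 UMIs, and the code was tested on simulated data. Genes were named by rank of counts or ratio within subfamilies; Lce1f, Lce3f, S100a2, S100a5, S100a6, S100a7a, S100a8, S100a16, Sprr2a3 and Sprr2j-ps were added after their values were seen. The genes, lists and tests were chosen with earlier results of these data known. Scrublet (scanpy 1.11.5) called 2 wildtype and 217 Eppk1-/- cells by its own threshold and had thus not worked in the wildtype, so doublets were kept, and an alternative left out the 5% of cells with the highest scores per library. TMM scaling used edgeR 4.0.16.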

Additional observations from a re-analysis of the deposited data

Results flagged for a closer look

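Cells that the filters removed held 38.0% (wildtype) and 37.6% (Eppk1-/-) of a library's UMIs of the complex, most of them in cells above the upper limit of UMIs. The cluster found nearly only in the Eppk1-/- library, led by Cyp2g1, Btc and Hamp2, had 1.62% of its UMIs from Lce genes, and 51 of its 56 Eppk1-/- cells passed the Lce cut of the latest stage. What these cells are was not tested.

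The log2 ratio of Eppk1-/- over wildtype had opposite signs in different keratinocyte stages for 4 sums, and with 1 library per genotype the difference between stages was not tested. For Sprr it was -0.048 in Krt1/Krt10-low, -0.16 in spinous and 0.20 in granular cells. For S100a it was -0.014, 0.028, -0.34 and, in latest cells, -0.18. For Ivl it was -0.21, -0.28, 0.20 and 0.45. For the fused-type genes it was 1.51, -0.16, 1.21 and 0.42, and the value in Krt1/Krt10-low cells includes the single cell with most Tchh UMIs.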

How the results depend on the processing

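Log2 ratios between genotypes in keratinocytes that moved beyond their counting interval or turned sign were as follows. Without the 5% of cells with the highest doublet scores, the log2 ratios of sums were Lce 0.020, Sprr -0.10, the fused-type sum 0.34, Lor -0.16. Without shared droplet barcodes, the log2 ratios of sums were Lce 0.24, Sprr -0.080, S100a -0.020, Lor 0.054. With the cluster of 56 Eppk1-/- cells counted as keratinocytes (added after seeing the data), the log2 ratios of sums were Lce 0.065, Lor -0.058. As a mean over cells, the log2 ratios of sums were Lce -0.10, Sprr 0.047, the fused-type sum 0.40, Lor -0.26, Ivl -0.073. With stages weighted by wildtype shares, the log2 ratios of sums were Lce -0.11, Sprr -0.079, the fused-type sum 0.83, Lor -0.14, Ivl -0.21. With no cell filter, the log2 ratios of sums were Sprr -0.033, S100a -0.033, the fused-type sum 0.56, Lor -0.15, Ivl 0.019. Without the cell with most UMIs of the gene in each library (added after seeing the data), the log2 ratios of sums were the fused-type sum 0.65. Among single genes whose counting interval excluded 0 the sign turned for Crnn (-1.27, without the 5% of cells with the highest doublet scores), Crnn (-0.93, without the cell with most UMIs of the gene in each library), Ivl (0.019, with no cell filter), Lce1a2 (0.14, without shared droplet barcodes), Lor (0.054, without shared droplet barcodes), S100a3 (-0.26, without the 5% of cells with the highest doublet scores), S100a9 (0.074, as a mean over cells), Sprr1a (0.045, as a mean over cells). Of named genes whose interval included 0, the sign also turned for Hrnr (between -0.070 and 0.11), Lce1k (between -0.064 and 0.41), S100a14 (between -0.057 and 0.040), Sprr1b (between -0.081 and 0.34) over 11 alternatives. With stage cuts at 0.5%, the ratios within stages were Lce -0.21 (granular) and 0.017 (latest), Sprr -0.15 (Krt1/Krt10-low) and -0.14 (spinous) and 0.25 (granular), S100a -0.00030 (Krt1/Krt10-low) and -0.0051 (spinous) and -0.39 (latest), the fused-type sum 1.96 (Krt1/Krt10-low) and -0.23 (spinous) and 1.26 (granular) and 0.48 (latest), Lor -0.48 (Krt1/Krt10-low) and -0.78 (spinous) and -0.050 (granular) and -0.016 (latest), Ivl -0.027 (Krt1/Krt10-low) and -0.32 (spinous) and 0.33 (granular) and 0.16 (latest). With stage cuts at 2%, the ratios within stages were Lce -0.48 (granular) and -0.15 (latest), Sprr -0.11 (Krt1/Krt10-low) and -0.14 (spinous) and 0.25 (granular) and 0.42 (latest), S100a -0.027 (Krt1/Krt10-low) and 0.093 (spinous) and 0.0079 (latest), the fused-type sum 0.40 (Krt1/Krt10-low) and -0.24 (spinous) and 1.07 (granular) and 0.33 (latest), Lor -1.71 (Krt1/Krt10-low) and -0.91 (spinous) and -0.23 (granular) and -0.12 (latest), Ivl 0.83 (latest). Without the 5% of cells with the highest doublet scores, the ratios within stages were Sprr -0.15 (Krt1/Krt10-low) and 0.13 (granular) and 0.016 (latest), S100a -0.41 (granular), the fused-type sum 0.028 (Krt1/Krt10-low) and 0.87 (granular) and 0.39 (latest), Lor -0.10 (granular) and -0.11 (latest), Ivl 0.80 (latest). Of genes past 0.5, 1 was higher without the highest doublet scores, 2 without the top cell per gene and library, and 3 were higher and 5 lower with a minimum of 500 UMIs. With no cell filter 3 genes were highest in spinous cells, and without integration 0 in T and NK lymphocytes. Except for the top-cell setting, shares over all genes under these settings are not given, so these counts are a description. Leaving out the top cell of each gene, stage and library was added after seeing the data. Causes were not tested. Of 208 recomputed main values 128 stayed within their interval or count, 72 moved and 8 turned sign, and of 352 recomputed values of single genes 271 stayed, 73 moved and 8 turned sign, where only a value whose interval excluded 0 counts as turned. No paired analysis was possible because each genotype had 1 library, and no replicate could be left out. Depth limits Lce3, Rptn, Crnn, S100a8 and Sprr2a3, and the upper limit of UMIs limits what the granular stage shows.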
